A study of Mus musculus with 15 samples.

Results

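Vascular cells of the mouse prefrontal cortex (PFC) were examined across adolescence and cocaine self-administration. They comprise the 5596 cells whose deposited cluster name begins with Endo, among 35360 retained cells of single-cell RNA sequencing (15.8%), and were chosen by that name alone. Of these, 3564 came from 12 adult libraries, in which they were divided into 13 numbered sub-clusters, and 2032 from 3 libraries at P21, in which they carried no sub-cluster. The adult mice are called P60 here, after the study, and their labels give 8 to 10 weeks, while the P21 mice were 3 weeks old. All were C57BL/6N males. Titles and source of every sample give the PFC, whereas the tissue field of the labels reads NAc, and the PFC is used here after the former and the study. Adult mice self-administered cocaine or saline through a jugular catheter after food training and were taken at the end of the maintenance phase, at 48 h or at 15 days of withdrawal. Each of these 6 groups had 2 libraries, and every library held pooled tissue of 2 mice. Libraries are numbered as in the labels. At maintenance, 1 and 4 were cocaine and 2 and 3 saline. At 48 h, 6 and 8 were cocaine and 5 and 7 saline. At 15 days, 9 and 10 were cocaine and 11 and 12 saline. Saline P60 mice had undergone surgery and training and P21 mice are not described as having done so, so that age and this history cannot be told apart. In matching P21 to P60 cells, the study used a rank correlation to limit bias from differing sequencing technologies. Any such technical difference between the ages cannot be told apart from age either. Fewer P21 mice are described than separate pools would need, so it is not known whether P21 libraries 1, 2 and 3 came from different animals. Summed over the Endo cells of a library, 783263 to 3301398 UMIs entered the comparisons. P21 library 1 stood apart from the other two in gene expression: 129 and 123 of 4625 genes differed more than 2-fold from libraries 2 and 3, against 4 between those and 21 to 70 within the adult groups. The p-values measure the spread between libraries, which may in part be technical, and they count the 3 P21 libraries as independent.

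Endothelial cells line the blood vessels of the brain and form the blood-brain barrier through tight junctions, low vesicular transport, selective carriers of nutrients and efflux pumps. Wnt signals from the surrounding tissue maintain these barrier properties, VEGF signalling directs the sprouting of new vessels through specialised tip cells, and Notch signalling restrains it. Pericytes and smooth muscle cells, together called mural cells, wrap the endothelium and share with it a basement membrane of collagen IV and laminins.

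Endothelial markers are given here to describe the cells. The study named this class from Flt1 and built the clusters on the same counts, so high values are no independent check of the name. Flt1 (chr5:148373180-148537587 of NCBIM37), which encodes a VEGF receptor, was at 2646 ± 183 CPM (UMIs of a gene per 1000000 UMIs of one cell type within one library; SD, n = 12) in P60 Endo cells and at 18.5 CPM in oligodendrocyte precursors, the next highest type. At P21 it was at 1748 ± 178 CPM (n = 3) against 61.9 CPM in the next type. Cldn5 (chr16:18776940-18778353), the principal claudin of the brain endothelium, was at 2197 ± 966 CPM at P60 and 3385 ± 2561 CPM at P21, and the next type held 23.5 and 495 CPM. Tek, the angiopoietin receptor, was 151-fold above the next type at P60 and 61.7-fold at P21. The 10 endothelial markers examined were all highest in Endo cells at both ages, with the narrowest margin for Ramp2 at P21 (4.25-fold). At P21 the next type for Flt1, Cldn5 and Ramp2 was oligodendrocyte precursors, whose values rest on 1 library. Of the 5596 cells, 64 carried another class in the coarser deposited column, 33 of them microglia, and 16 barcodes occurred in more than 1 library over the 105 library pairs.

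Pericyte and smooth muscle markers were also found in most of these cells, so that the label Endo covers more than endothelial RNA. At least 0.2% of UMIs came from 11 pericyte and 9 smooth muscle markers in 3851 cells (68.8%). The same was seen in 0.307% of microglia, 0.385% of astrocytes and 1.49% of oligodendrocyte precursors, which had somewhat lower depths (median 4344 UMIs per cell in Endo cells and 3164.5, 3449 and 3393.5 in the others). Cells with mural RNA also held endothelial RNA. At P60 their median share of endothelial markers was 1.602% of UMIs, against 2.18% in cells without mural RNA. Both medians leave out cells with at least 2% of UMIs from red blood cell markers. The median over all microglia of both ages was 0.0%. Cells with at least 2 mural UMIs and no Cldn5 UMI made up only 0.395% to 3.79% of the Endo cells of a library. The threshold of 0.2% was set after the values were seen, and 832 cells lay between 0.1% and 0.4%. The population is therefore called Endo cells here and not endothelial cells, and whether a droplet held 1 cell, a cell with attached fragments or a pair was not tested.

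Red blood cell RNA was present as well. Haemoglobin genes and Alas2 made up at least 2% of UMIs in 1194 Endo cells (21.3%), but in only 1.35% of microglia and 1.87% of astrocytes. Only 154 cells lay between 1% and 5%, and most cells were well below or above this range.

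**Figure D1:**
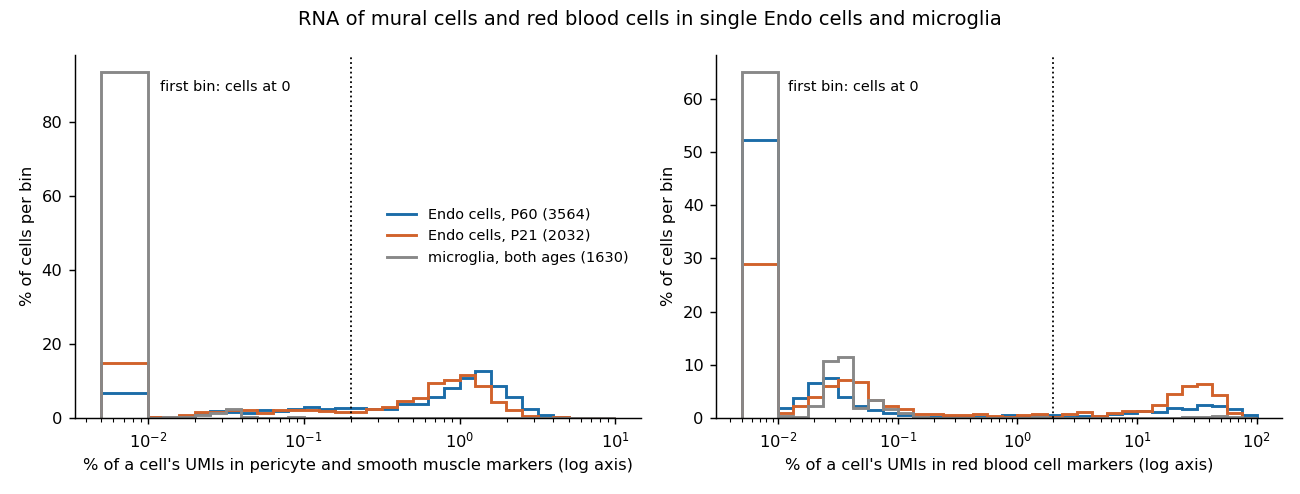
Percent of a cell's UMIs in pericyte and smooth muscle markers (left) and red blood cell markers (right), on log axes, against the percent of cells in each bin, for P60 Endo cells (3564, blue), P21 Endo cells (2032, orange) and microglia (1630, grey). The first bin holds cells at 0 and dotted lines mark 0.2% and 2%. Most Endo cells lie to the right of the left-hand line and almost no microglia do, and the red cell panel shows a separate group of Endo cells above its line.

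The authors' P60 sub-clusters are described here by their leading genes, which are not results since the clusters were built on the same counts. Sub-cluster 1 (332 cells) was led by the arterial genes Gkn3, Bmx, Alpl and Sema3g. Sub-cluster 8 (219 cells) was led by genes that included Vcam1 and Icam1, and sub-cluster 12 (240 cells) by Lcn2, Lrg1, Darc and Vcam1. Acta2, Tagln and Myh11, which encode contractile proteins of smooth muscle, led sub-cluster 2 (337 cells), while the pericyte markers Kcnj8 and Vtn were among the leading genes of sub-clusters 5 (341 cells) and 6 (317 cells), the latter led by Saa2 and Saa1. Sub-cluster 4 (394 cells) was led by Spp1, Slc6a13, Ptgds and Igf2, with Vtn and Kcnj8 further down. The remaining ones included 81 cells with leukocyte genes (Cd74, Cd52, Cd79a), 168 cells with the platelet genes Ppbp, Pf4 and Gp9, and sub-cluster 13 with 231 cells, in which haemoglobin genes and Alas2 averaged 46.6% of UMIs. Mean mural RNA ranged from 0.168% of UMIs in sub-cluster 7 to 1.57% in sub-cluster 5. P21 cells were not divided, so mural cells were not compared between ages as a class of their own.

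Shares of cells were compared over libraries. Endo cells made up 15.4%, 22.7% and 21.6% of the retained cells in P21 libraries 1, 2 and 3 and between 11.1% and 22.9% in the 6 saline P60 libraries, and the difference of means (-2.88 percentage points) was within the spread (exact permutation test, two-sided p = 0.429). Among cells other than neurons their share was 41.1%, 67.4% and 69.02% in the P21 libraries and 23.2% to 61.6% in the saline libraries (exact permutation test, p = 0.143). In contrast, cells with red cell RNA were more frequent at P21. Their share was 30.8% ± 1.15 (n = 3) at P21 and 15.1% ± 3.42 (n = 6) in saline P60 libraries, and no library of 1 group overlapped with the other (exact permutation test, two-sided p = 0.0119, the smallest that the 84 regroupings allow). The regroupings count the P21 libraries as independent, which is not known. Cells with mural RNA were less frequent at P21, at 64.6% ± 4.47 against 73.4% ± 2.21, again without overlap (exact permutation test, two-sided p = 0.0119). At a threshold of 0.4% of UMIs the groups overlapped, with 60.9% in P21 library 2 and 59.9% in saline library 12. The other P21 libraries held 53.0% and 58.6% at that threshold, and the other saline libraries 63.8% to 66.9%. Cells with mural UMIs and no Cldn5 did not differ beyond the spread (2.40% ± 1.46 and 2.21% ± 1.01, exact permutation test, p = 0.857). The depth per Endo cell differed between these groups, with medians of 3304 to 4805 UMIs in P21 libraries and 4225.5 to 4767 UMIs in saline P60 libraries, and its part in the shares was not tested.

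Cocaine was compared with saline within time points. Endo cells made up 13.9% ± 2.85 of the retained cells in cocaine and 17.02% ± 5.15 in saline libraries (n = 6 each), which was not distinguishable (exact permutation within time points, two-sided p = 0.176, with 0.00926 as the smallest possible). Among cells other than neurons the difference was not distinguishable either (-4.53 percentage points, p = 0.657 by the same exact test), and at 15 days it lay in the other direction, with 49.4% and 53.3% in cocaine and 43.6% and 41.9% in saline libraries. Without saline library 7, the lowest of the saline libraries, the difference in the share of retained cells became -5.08 percentage points (p = 0.037 by the same exact test). Shares with mural RNA (69.2% ± 5.15 in cocaine libraries, p = 0.157), with red cell RNA (15.7% ± 4.69, p = 0.843) and with mural UMIs but no Cldn5 (1.17% ± 1.06, p = 0.148) did not pass the same exact permutation test either. For the last of these, leaving out cocaine library 1 gave -1.42 percentage points and p = 0.037 in the exact test.

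**Figure D2:**
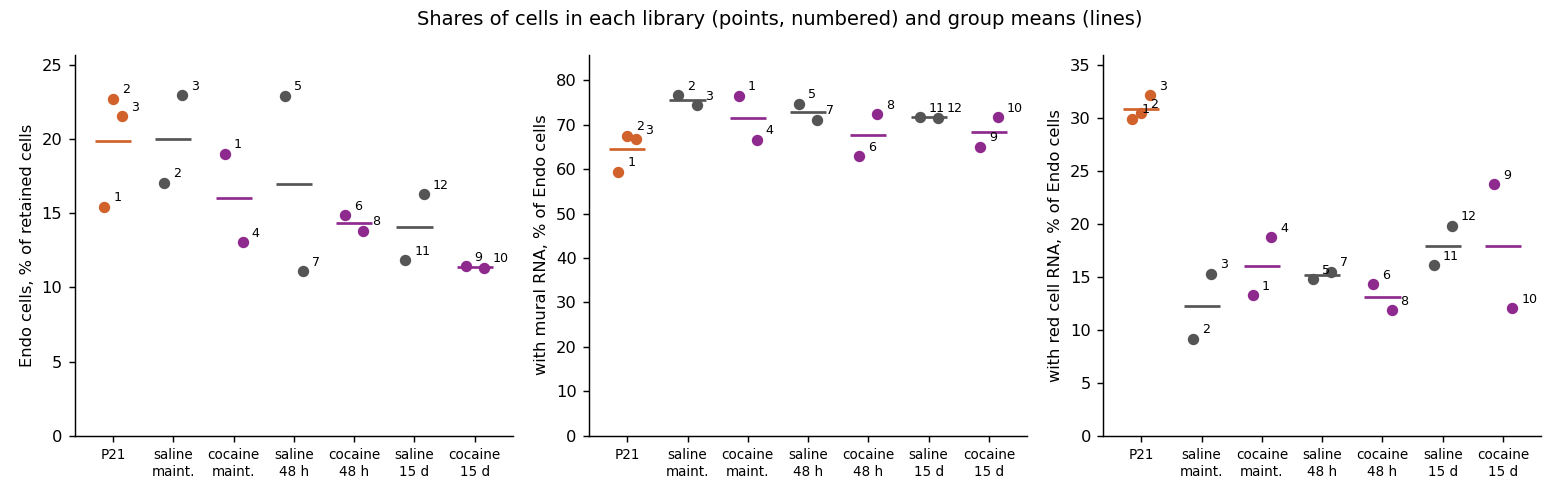
Percent of retained cells that are Endo cells (left), and percent of Endo cells with mural RNA (middle) and with red cell RNA (right), in each library (points, numbered) with group means (lines), in P21 (orange), saline (grey) and cocaine (purple) groups. The 3 P21 libraries lie above all P60 libraries for red cell RNA, at 29.9% to 32.1%, whereas the Endo share overlaps between groups. For mural RNA they lie below all saline libraries but overlap with cocaine libraries 4, 6 and 9.

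To ask which genes of Endo cells changed from P21 to adulthood, UMIs were summed over the Endo cells of each library and the 6 saline P60 libraries were compared with the 3 P21 libraries by edgeR's quasi-likelihood test. Genes are termed called where the p adjusted after Benjamini and Hochberg was under 0.05 with more than 1.5-fold change. Among the lists examined, 9 of 20 genes of VEGF signalling and tip cells and 12 of 21 of the basement membrane were called lower at P60, and 13 of 21 interferon and MHC class I genes were called higher. Of 10415 genes tested, 1319 were called (12.7%), 553 higher at P60 (5.31%) and 766 lower (7.35%), and the libraries of both groups did not overlap in CPM for 2202 genes (21.1%). The split by direction depended on the libraries, with 364 higher and 564 lower without P21 library 2, 345 and 614 without library 3, 690 and 713 without library 1, and 582 and 560 with only the saline 15 day libraries. With P21 libraries 2 and 3 summed as 1, 980 genes were called, 363 higher and 617 lower, and 957 of them were among the 1319. The median log2 fold change of all genes was 0.01. Sums over Endo cells mix RNA of endothelial and mural cells, and a change in their proportion and a change within cells cannot be told apart in them. The test was therefore repeated in the 1274 cells with under 0.2% mural and under 2% red cell RNA, which called 624 genes. Of the 1319 genes, 821 were tested there, 817 had the same direction and 499 were called again.

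**Figure D3:**
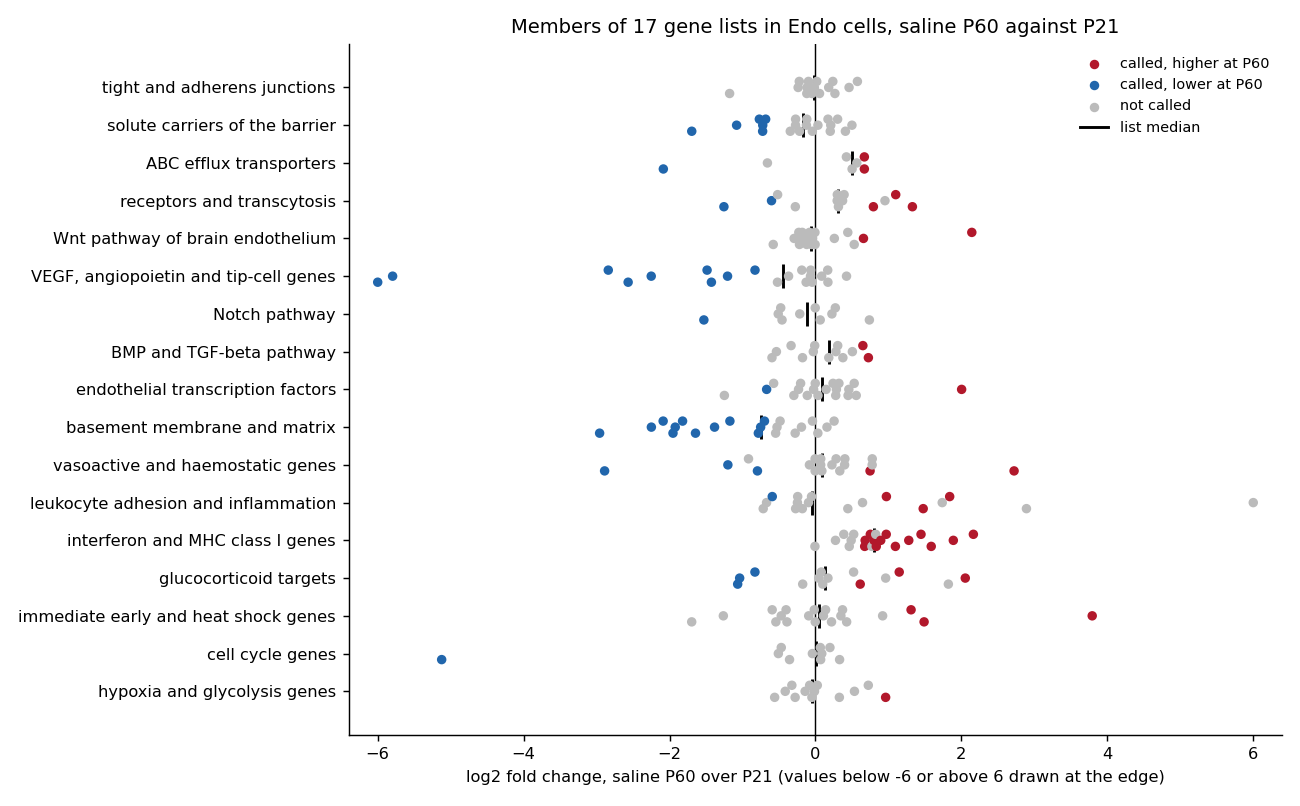
Log2 fold change of saline P60 over P21 (horizontal axis) for each tested member of 17 gene lists (rows), with members called higher at P60 in red, called lower in blue and others in grey, and list medians as black lines. The list of VEGF and tip-cell genes and that of the basement membrane hold called members on the left only (9 and 12), and the interferon and MHC class I list holds 13 on the right only.

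Of the list of VEGF, angiopoietin and tip-cell genes, 20 members were tested, 9 were lower at P60, none was higher and the median log2 fold change was -0.44. Aplnr (chr2:84976517-84980079), the receptor for apelin in sprouting endothelium, was at 60.0, 78.9 and 73.8 CPM in the P21 libraries. It had 568 UMIs at P21 and 0 UMIs in the 6 saline P60 libraries, which with a floor of 3 UMIs over the group makes it at least 191-fold lower at P60 (edgeR adjusted p = 2.24e-07). Not 1 Aplnr UMI was present in the cocaine libraries either. Its ligand Apln (chrX:45378323-45388030), a gene of tip cells, fell from 59.1, 79.4 and 89.6 CPM at P21 to between 0 and 2.90 CPM (median 1.53) at P60, a log2 fold change of -5.80 ± 0.34 (SE; adjusted p = 2.18e-07). All 3 P21 libraries were thus above every adult library for this ligand and receptor pair. Kdr (chr5:76328852-76374483), the main signalling receptor for VEGF, was at 789, 682 and 763 CPM at P21 and at 246 to 344 CPM (median 315) at P60, a log2 fold change of -1.43 ± 0.12 (adjusted p = 1.47e-06). The VEGF and semaphorin co-receptor Nrp1 was at 472 ± 21.6 and 226 ± 22.2 CPM (log2 -1.21 ± 0.10, adjusted p = 2.34e-06). For each of these 4 genes the groups did not overlap. The remaining members that fell were Angpt2, an antagonist ligand of the Tek receptor, Trp53i11, Plxnd1, Igfbp3 and Adm. In contrast, Flt1, which binds VEGF and can limit its signal, was at 1953, 1630.4 and 1662 CPM at P21 and at 2422 to 2739 CPM (median 2605) in saline libraries. The groups were apart and the adjusted p was 0.013, but at a log2 fold change of 0.43 ± 0.11 it was below the 1.5-fold threshold. In Endo cells with little mural and red cell RNA, 7 of the 15 members tested were called lower and none higher, beside 6.04% of all 5842 genes tested there that were called lower.

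In the basement membrane and matrix list 12 of 21 members were called, all lower at P60, with a median log2 fold change of -0.75. The collagen IV chains Col4a1 (chr8:11198423-11312826) and Col4a2 (chr8:11312805-11449287) lie head to head and overlap on opposite strands. Col4a2 was at 617, 622 and 639 CPM at P21 and at 131 to 159 CPM (median 145) at P60, and it fell by 2.25 ± 0.10 on the log2 scale (adjusted p = 3.07e-09). Col4a1 fell by 1.95 ± 0.13 from 353 ± 52.6 to 101 ± 14.2 CPM. For neither chain did the groups overlap. Lamb1, the laminin beta-1 chain, was at 51.8, 72.6 and 69.3 CPM at P21 and at 6.00 to 11.4 CPM at P60 (log2 -2.96 ± 0.18, adjusted p = 2.09e-07), and Nid1, which links laminin to collagen IV, fell by 1.92 ± 0.13. The others were Sparc, Lamc1, Nid2, Agrn, Serpinh1, the collagen chaperone, Hspg2, Lama4 and Loxl2. In cells with little mural and red cell RNA 10 of 20 members were called lower (6.04% of all genes in that fit). Fibroblast markers moved the same way, with 4 of 8 lower and a sum of 0.0200% to 0.0298% of UMIs at P21 against 0.00846% to 0.0194% in saline libraries. Among them Col3a1 was at 28.5 ± 6.59 CPM at P21 and at 1.14 ± 1.25 CPM at P60, and the part of fibroblast RNA in the matrix genes was not tested.

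**Figure D4:**
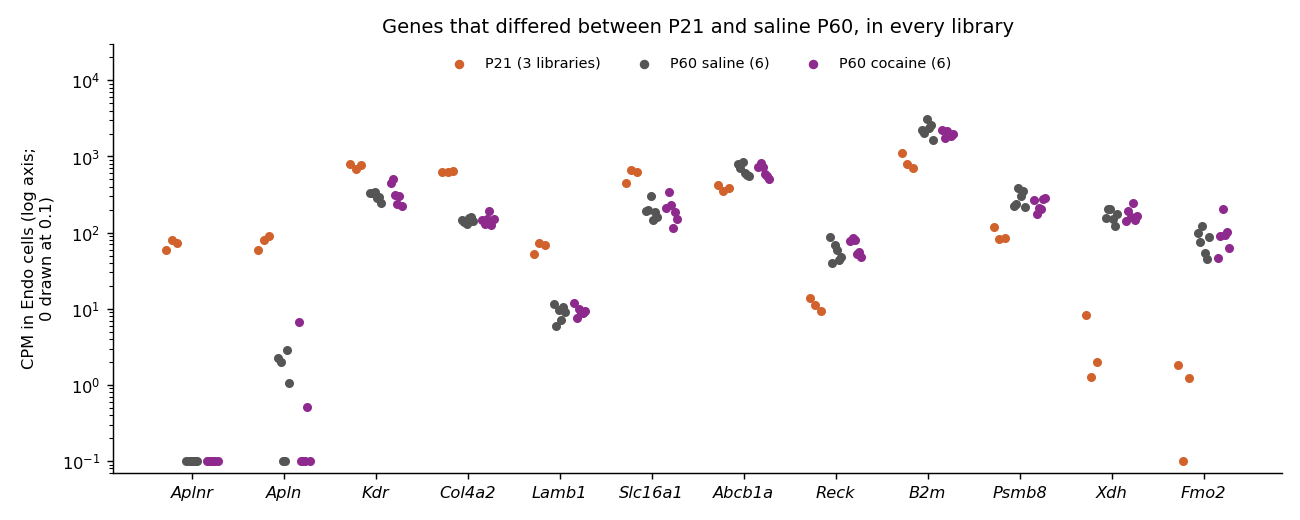
CPM in Endo cells (log axis, 0 drawn at 0.1) of 12 genes in the 3 P21 (orange), 6 saline P60 (grey) and 6 cocaine P60 (purple) libraries. Aplnr, Apln, Kdr, Col4a2, Lamb1 and Slc16a1 are higher in all P21 libraries than in all saline libraries, and Abcb1a, Reck, B2m, Psmb8, Xdh and Fmo2 are lower.

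Barrier genes changed in part, while 5.31% of all genes were called higher at P60 and 7.35% lower. Of 15 tight and adherens junction genes tested, none was called, with a median log2 fold change of -0.02. Cldn5 was at 6334 CPM in P21 library 1 but at 2099 and 1722 CPM in libraries 2 and 3, and at 1096 to 2459.8 CPM (median 1649.7) in saline libraries, so that the groups overlapped (log2 -1.18 ± 0.44, adjusted p = 0.121). Esam, an adhesion molecule of endothelial junctions, was at 992 ± 107 and 940 ± 95.8 CPM. Among 20 solute carriers 6 were lower and none was higher. Slc16a1 (chr3:104442591-104462385), which carries lactate and ketone bodies, was at 453, 655 and 622 CPM at P21 and at 145 to 298 CPM (median 188) at P60 (log2 -1.70 ± 0.19, adjusted p = 8.9e-05). The metal transporter Slc39a8 fell by 1.08 ± 0.16 and the organic anion transporter Slc22a8 by 0.72 ± 0.14. The iron exporter Slc40a1, the lipid carrier Mfsd2a and the cationic amino acid carrier Slc7a1 were the others, of which Slc40a1 fell short of the fold threshold without P21 library 2 (-0.57). Slc2a1, the glucose carrier of the barrier and named here after its values were seen, was at 1040.5, 1434 and 1391 CPM at P21 and at 1582 to 2311 CPM at P60 and was not called, although the groups were apart.

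Of 7 ABC transporters 2 were higher and 1 was lower at P60, beside 5.31% and 7.35% of all genes. Abcb1a, which encodes P-glycoprotein, was at 425, 350.2 and 385 CPM at P21 and at 558 to 839 CPM at P60 (log2 0.67 ± 0.14, adjusted p = 0.005), although the call was lost when only the saline 15 day libraries were used (0.37, adjusted p = 0.0959). Abcg2, the breast cancer resistance protein, was called at 0.67 ± 0.17, but not without P21 library 1 (0.53, below the fold threshold) or with only the saline 15 day libraries (0.31, adjusted p = 0.272). The cholesterol exporter Abca1 instead fell by 2.09 ± 0.18, from 108 ± 19.0 to 27.1 ± 7.20 CPM. Of 13 receptors and genes of vesicular transport, 3 were higher and 2 lower. Those that rose included the caveolar genes Cav2 (44.2 ± 3.24 to 123 ± 29.5 CPM) and Ptrf (147 ± 47.0 to 282 ± 45.8 CPM), and the Ptrf call was lost with only the saline 15 day libraries (adjusted p = 0.0734). Lrp8, a lipoprotein receptor that also binds reelin, fell by 1.25 ± 0.14, and the insulin receptor Insr was called at the edge of the threshold (log2 -0.60 ± 0.13). The Insr call was lost under several alternatives, including all 12 P60 libraries (-0.55), without P21 library 2 (-0.51, adjusted p = 0.0538) and in cells with little mural and red cell RNA (-0.47, adjusted p = 0.1).

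In the signalling lists called members were about as frequent as among all genes (12.7%). In the Wnt list 2 of 18 were higher. Reck (chr4:43888402-43957678), a co-receptor for Wnt7 in brain endothelium, was at 13.9, 11.3 and 9.33 CPM at P21 and at 40.0 to 88.0 CPM (median 53.6) at P60 (log2 2.14 ± 0.26, adjusted p = 6.09e-05), and Axin2, a transcriptional target of the pathway, was called at 0.66 ± 0.15, but not with only the saline 15 day libraries (0.38, adjusted p = 0.138). In the Notch list only Hey1 of 10 was called, at 91.7 ± 7.63 CPM at P21 and 35.3 ± 8.04 CPM at P60, while Notch1 was at 193 ± 4.60 and 213 ± 10.8 CPM. Of 13 BMP and TGF-beta genes the receptor Acvrl1 (log2 0.73 ± 0.11) and the inhibitory Smad7 (0.65 ± 0.17) were higher. The Smad7 call was lost without P21 library 1 (0.52, adjusted p = 0.0506), with only the saline 15 day libraries (0.43) and in cells with little mural and red cell RNA (0.81, adjusted p = 0.0505). Among 20 endothelial transcription factors Sox18 rose by 2.00 ± 0.45 and Sox7 fell by 0.67 ± 0.13. In cells with little mural and red cell RNA Sox7 was not called, at a log2 fold change of -0.29 (adjusted p = 0.384). The Sox18 call was lost when any of the 3 P21 libraries was left out (adjusted p = 0.0540 to 0.0659), at log2 fold changes of 1.99 to 2.06. Of 10 cell cycle genes that could be tested, Cdk1 alone was called, with 107 UMIs at P21 and 3 at P60, a ratio of 36.0 (12.0 to 177, 95% interval for counting error only).

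Interferon and MHC class I genes were higher at P60 in 13 of 21 members tested, none was lower and the list median was 0.80. B2m (chr2:121973422-121978819), the light chain of all MHC class I molecules, was at 1097, 807 and 716 CPM at P21 and at 1669 to 3127 CPM (median 2301) at P60 (log2 1.28 ± 0.18, adjusted p = 0.000302). Psmb8, a subunit of the immunoproteasome, rose from 95.5 ± 20.7 to 288 ± 72.0 CPM (log2 1.45 ± 0.20), and Ly6a, which interferons induce, rose by 1.10 ± 0.14 to 4222 ± 192 CPM. Ifitm2, an antiviral membrane protein, rose by 0.89 ± 0.13. The other members that rose were Ifitm1, Ifitm3, Ifit3, Gbp3, H2-D1, H2-K1, Tap1, Tap2 and Tapbp, the last 3 of which load peptides onto class I molecules. P21 library 1 was the highest of the 3 P21 libraries for B2m, Psmb8, Ly6a, Ifitm2 and Ifit3, and without it 18 of 21 members were called higher (6.53% of all genes in that fit). In cells with little mural and red cell RNA 11 of 21 were called higher (4.64% of all genes in that fit).

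The list was also read at the sequence level, since its members are known as targets of STAT and IRF factors. The core of an interferon-stimulated response element, taken as GAAA followed by any 2 bases and GAAA again, was searched on both strands in windows from 250 bases before to 50 bases after transcription starts (RefSeq, GRCm38.p6). It occurred in 3.44% of 32851 windows and 3.99% of all genes with a window, in 9 of the 18 members of the list that had one, and in 5 of 11 members that rose and had one. No match to this exact pattern was found in H2-D1, H2-K1, Tap1, Tapbp, Psmb8 and Ifitm1, which rose. Other forms of the element were not searched, so these windows cannot be said to lack one. Bst2, Ifit1, Isg15 and Rsad2 held it but were not called higher, so the match was not particular to members that rose. A match says nothing of binding. Windows of 3 members that rose are printed 5′ to 3′ on the gene's strand, with the match, which on the opposite strand reads TTTC, any 2 bases and TTTC, in capitals. They lie at chr2:122147437-122147736 (plus strand), chr7:140955912-140956211 (minus strand) and chr19:34583279-34583578 (plus strand), respectively.
B2m: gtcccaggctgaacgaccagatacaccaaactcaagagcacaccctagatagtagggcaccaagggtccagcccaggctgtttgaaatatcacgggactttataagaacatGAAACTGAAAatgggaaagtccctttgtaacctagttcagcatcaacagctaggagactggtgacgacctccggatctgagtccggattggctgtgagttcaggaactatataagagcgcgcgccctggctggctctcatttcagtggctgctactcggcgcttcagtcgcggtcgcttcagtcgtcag
Ifitm2: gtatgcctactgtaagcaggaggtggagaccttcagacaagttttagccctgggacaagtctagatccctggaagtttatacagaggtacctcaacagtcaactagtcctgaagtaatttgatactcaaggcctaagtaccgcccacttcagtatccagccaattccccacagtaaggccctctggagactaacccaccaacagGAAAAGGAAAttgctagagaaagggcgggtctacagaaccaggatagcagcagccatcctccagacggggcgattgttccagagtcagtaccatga
Ifit3: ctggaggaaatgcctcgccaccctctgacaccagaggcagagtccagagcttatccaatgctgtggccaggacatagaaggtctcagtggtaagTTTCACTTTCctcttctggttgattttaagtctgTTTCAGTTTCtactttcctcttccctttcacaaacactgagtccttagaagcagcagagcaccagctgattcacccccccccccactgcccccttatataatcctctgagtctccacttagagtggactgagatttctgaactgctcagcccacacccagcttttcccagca
A single match is present in B2m and Ifitm2, and 2 matches are present in Ifit3.

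Inflammatory and stress genes were called to differing extents, beside 12.7% of all genes called. In the list of immediate early and heat shock genes and that of hypoxia and glycolysis genes, called members were about as frequent as that. In the lists of leukocyte adhesion, of vasoactive and haemostatic genes and of glucocorticoid targets they were more frequent, and lay in both directions. Of 17 genes of leukocyte adhesion and inflammation, Vcam1 rose from 43.3 ± 9.86 to 170 ± 49.2 CPM (log2 1.84 ± 0.25, adjusted p = 0.000486), and Irf1 and the interleukin-6 receptor Il6ra were also higher. Icam1 was the only one called lower (-0.59 ± 0.17), at the edge of the fold threshold. The call was lost under most alternatives, among them leaving out any 1 of the P21 libraries or saline library 2, 3, 5 or 7, adding the cocaine libraries (-0.54), using only the saline 15 day libraries (-0.24), and in cells with little mural and red cell RNA, where its log2 fold change was 0.06. Of 19 vasoactive and haemostatic genes, Thbd, the thrombin receptor thrombomodulin, rose from 68.2 ± 0.985 to 127 ± 14.03 CPM and Ptgs2 rose by 2.72 ± 0.45, whereas 3 genes fell, among them Tfpi and Ptgis. Glucocorticoid targets were split, with Mt2, Ddit4 and Mt1 higher and Cdkn1a, Sgk1 and Errfi1 lower among 14. The heat shock gene Hspa1a was at 380.1, 524 and 421 CPM at P21 and at 829 to 2319 CPM at P60 (log2 1.49 ± 0.31, adjusted p = 0.0101), Hspa1b and Ier3 were the other called members of the 20 immediate early and heat shock genes, and the Hspa1a call was lost without P21 library 1 (adjusted p = 0.0519). The Hspa1b and Ier3 calls were each lost without any 1 of the P21 libraries, at log2 fold changes of 3.52 to 4.15 and 1.24 to 1.41. Of 13 hypoxia and glycolysis genes only Bnip3 was called (0.96 ± 0.19), and not in cells with little mural and red cell RNA (0.74, adjusted p = 0.158). With only the saline 15 day libraries the Bnip3, Mt2 and Errfi1 calls were lost, and the Tfpi call was lost without P21 library 2.

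The largest rises outside the lists were in genes nearly undetected at P21. Xdh (chr17:74233248-74299522), which encodes xanthine oxidoreductase, was at 8.18, 1.26 and 2.03 CPM at P21 and at 123 to 206 CPM (median 167) at P60 (log2 5.18 ± 0.42, adjusted p = 3.42e-05). Fmo2 (chr1:164804448-164828857), a flavin monooxygenase, was at 1.82, 0 and 1.22 CPM at P21 and at 45.4 to 121 CPM at P60 (log2 5.97 ± 0.57). Both had no overlap between groups, which was a condition for being named among the largest rises. H2-Q6 had 2 UMIs at P21 and 244 at P60, a ratio of 121 (33.1 to 1004, 95% interval for counting error only), and H2-Q7 was at 1.503 ± 1.02 and 53.6 ± 22.6 CPM. The transcript end of H2-Q6 is nearly identical to those of other class I genes, including H2-K1, so its reads may be shared with them. Sncg, Coro2a and Cyp2e1 rose by 3.85 ± 0.35, 3.58 ± 0.33 and 3.43 ± 0.45. Among the largest falls besides Aplnr and Apln were Prnd (37.0 ± 13.6 to 0.595 ± 0.9304 CPM), which overlaps Prnp on the same strand, the rhomboid protease gene Rhbdl2, the actin bundler Fscn1 (54.5 ± 6.65 to 5.40 ± 5.03 CPM) and the endothelial protocadherin Pcdh12.

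Markers of vessel segments and other cell types also differed with age. Among all genes 5.31% were called higher and 7.35% lower at P60. Of 10 arterial markers 5 were higher at P60 (Bmx, Tm4sf1, Alpl, Gkn3 and Sema3g) and Hey1 was lower. Gkn3 was at 34.5, 44.1 and 48.3 CPM at P21 and at 234 to 688 CPM (median 417) at P60. Of 8 capillary markers 3 were lower (Slc16a1, Mfsd2a and 1190002H23Rik, also called Rgcc), and of 10 venous markers Vcam1 was higher and Icam1 lower. Of 8 smooth muscle markers 4 were higher at P60 (Myh11, Lmod1, Tpm2 and Tagln), and the summed share of these markers was 0.0716% to 0.0765% of UMIs at P21 and 0.0965% to 0.159% in saline libraries. Pericyte markers summed to 0.514% to 0.612% and 0.611% to 0.874%, and Notch3 and Vtn of 11 were called higher. All 5 red blood cell markers were lower at P60, with sums of 8.91% to 11.8% of UMIs at P21 and 4.49% to 7.58% in saline libraries. When cells with at least 2% red cell RNA were left out, 1181 genes were called. Of 7 microglial markers 6 were lower at P60, at sums of only 0.0136% to 0.0342% against 0.00662% to 0.0125%. The part of each of these in the other differences was not tested beyond the repeats named above.

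Few genes were called between cocaine and saline libraries. At maintenance none of 10057 genes was called by edgeR (0.0%, with 447 genes at an unadjusted p below 0.05) and none by DESeq2. At 48 h of withdrawal 2 genes were called (0.0199%), both higher after cocaine. Cdkn1a (chr17:29227924-29237667), an inhibitor of the cell cycle that glucocorticoids and stress induce, was at 725 and 730.0 CPM in cocaine libraries 6 and 8 and at 399 and 371 CPM in saline libraries 5 and 7 (log2 0.99 ± 0.17, edgeR adjusted p = 0.0243). Hbegf, a growth factor of the EGF family, was at 258 and 280.3 CPM in cocaine and at 131 and 161 CPM in saline libraries (0.97 ± 0.16, adjusted p = 0.0243). Both genes were also called by DESeq2. Saline libraries at the other times reached 611 CPM of Cdkn1a (library 12) and 280.1 CPM of Hbegf (library 11). The cocaine libraries were thus above every saline library for Cdkn1a, but for Hbegf library 6 was below and library 8 level with the highest of them. Neither call was kept without cocaine library 8 or without saline library 5, at log2 fold changes of 0.94 and 1.01 for Cdkn1a and 0.87 and 0.79 for Hbegf. Of the pair only Hbegf was kept without saline library 7, where 7 genes were called, and 22 genes, all higher, were called without cocaine library 6. The balance of direction was not stable either, with 1 gene higher and 1 lower without saline library 5, 2 higher and 6 lower with the 4 libraries of this time point alone, and 19 higher and 10 lower without a filter on low counts. In cells with little mural and red cell RNA neither was called, at log2 fold changes of 1.09 and 1.48 (adjusted p = 0.086 and 0.0572). P21 Endo cells held more Cdkn1a than any adult library, at 864 to 943 CPM.

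At 15 days 14 genes were called (0.139%), all higher after cocaine. The 5 with the largest change were Dnlz, 2310036O22Rik, Pop5, 1190002H23Rik (Rgcc) and Fam176b. Pop5, a subunit of RNase P, was at 165 and 115 CPM in cocaine libraries 9 and 10 and at 49.7 and 64.8 CPM in saline libraries 11 and 12 (log2 1.302 ± 0.21, adjusted p = 0.0114). Rgcc, a cell cycle regulator, was at 399.6 and 346 CPM against 119 and 193 CPM (1.25 ± 0.20, adjusted p = 0.0176). Dnlz, a mitochondrial chaperone partner that overlaps Gpsm1 on the opposite strand, was at 23.4 and 24.01 CPM against 6.28 and 8.50 CPM (1.68 ± 0.33, adjusted p = 0.0248). Nearly all of these genes were also higher in the cocaine libraries in other cell types. Their cocaine to saline ratios at 15 days had a median of 2.12 in Endo cells and of 1.91 to 2.36 in excitatory and inhibitory neurons, microglia, astrocytes and oligodendrocytes, in each of which 13 or 14 of the 14 were higher. In addition, all 14 were higher in P21 library 1 than in P21 libraries 2 and 3 (median ratio 2.15 in Endo cells). In the other types the ratios of P21 library 1 to the mean of P21 libraries 2 and 3 had medians of 1.68 to 2.28. No call remained without cocaine library 9 or without saline library 11, although all 14 genes kept their direction (Dnlz at a log2 fold change of 1.65 and 1.41, and Pop5 at 0.96 and 1.06), 3 genes were called without cocaine library 10 and 133 without saline library 12. Leaving out cocaine library 6, saline library 7 or cocaine library 8 of the 48 h groups gave 25, 25 and 26 genes, and DESeq2 called 12 genes, 6 of them shared. With the 4 libraries of this time point alone, no gene was called. In cells with little mural and red cell RNA all calls were lost, with the same direction in the 13 of them that were tested (Pop5 at 1.52, adjusted p = 0.155), and in the cells of sub-clusters 1, 7, 8, 9, 10 and 12, whose leading genes held no more markers of other cell types than of endothelium, 3 of the 14 were called again.

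**Figure D5:**
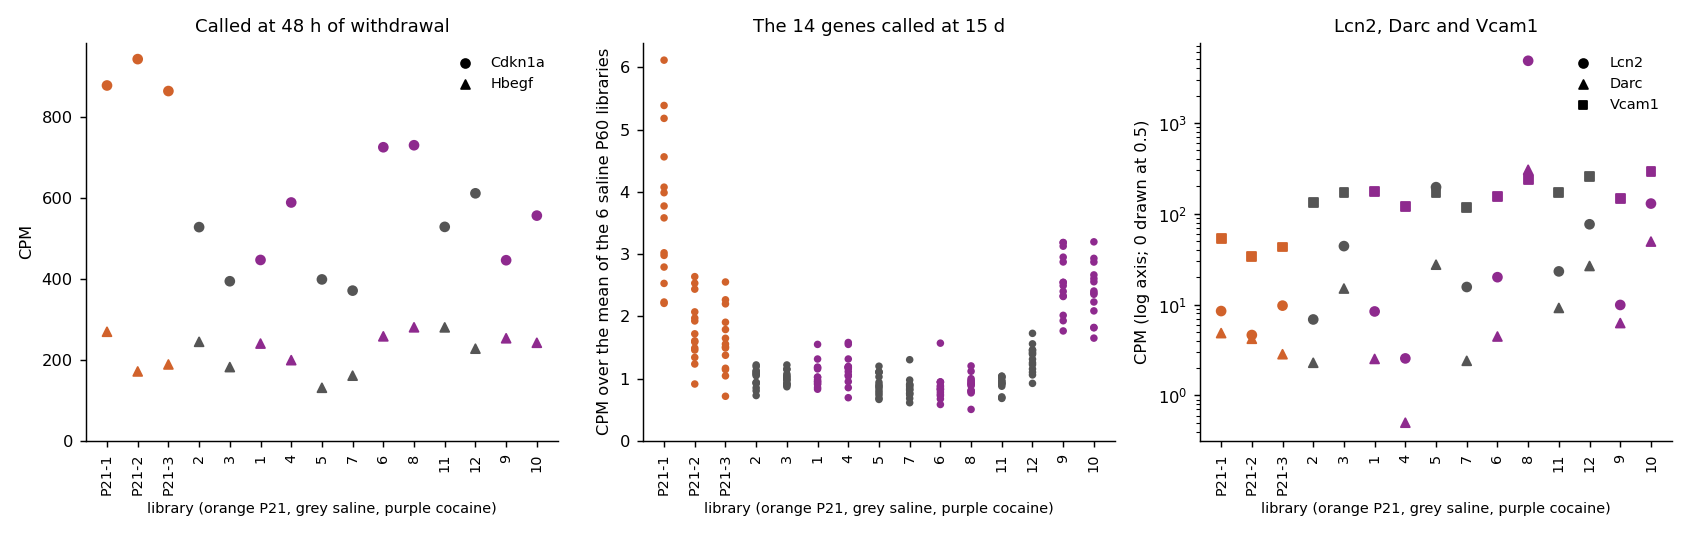
CPM in the Endo cells of each library (horizontal axis, P21 in orange, saline in grey, cocaine in purple) of Cdkn1a and Hbegf (left), of the 14 genes called at 15 days, each divided by its mean in the 6 saline P60 libraries (middle), and of Lcn2, Darc and Vcam1 on a log axis with 0 drawn at 0.5 (right). Cdkn1a is at 725 and 730.0 CPM in cocaine libraries 6 and 8, the 14 genes are high in cocaine libraries 9 and 10 and in P21 library 1, and Lcn2 is at 4830.2 CPM in library 8 alone.

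Over all times no gene was called by edgeR (601 at an unadjusted p below 0.05) or DESeq2, and the interaction of cocaine with time gave none in either (462 at an unadjusted p below 0.05 by edgeR). Libraries of cocaine and saline did not overlap over all times for 21 genes (0.209%). Of the members of the 17 lists, Cdkn1a at 48 h was the only one called in a cocaine comparison of the main edgeR fit, before libraries or settings were changed. List medians at 48 h were 0.46 for glucocorticoid targets, 0.45 for leukocyte adhesion, 0.33 for immediate early and heat shock genes and -0.33 for interferon and MHC class I genes, beside 0.02 for all genes. Without cocaine library 8, the medians of glucocorticoid targets and leukocyte adhesion turned to -0.11 and -0.31, and those of the other pair were 0.34 and -0.19. Leaving out library 5, 6 or 7 instead gave 0.33 to 0.59 for glucocorticoid targets and 0.33 to 0.70 for leukocyte adhesion. The medians of the other pair were then 0.29 to 0.34 and -0.54 to -0.14. Flt1 had log2 fold changes of 0.19 ± 0.13, 0.10 ± 0.13 and -0.03 ± 0.13 at maintenance, 48 h and 15 days. Cldn5 was at 4228 and 3429 CPM in cocaine libraries 9 and 10 and at 1096 and 2459.8 CPM in saline libraries 11 and 12, and at a log2 fold change of 1.09 ± 0.49 it was not called (adjusted p = 1.00).

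A single cocaine library stood apart in a few genes. Lcn2, which encodes the iron-scavenging protein lipocalin 2, was at 4830.2 CPM in library 8 (cocaine, 48 h) and at 2.55 to 196 CPM in the other P60 libraries. Its partner at the same time, library 6, held 20.02 CPM, and no Lcn2 difference was called. The secretoglobin Scgb3a1, the protease inhibitor Serpina3n, the chemokine receptor Darc (Ackr1) and Acat3 were also at 20 CPM or more and over 4-fold above every other P60 library there, and no other P60 library had a gene that met both limits. Library 8 held 51 of the 240 cells of sub-cluster 12, second in number to 58 in library 12, among 253 and 409 Endo cells in these libraries. With these cells left out Lcn2 was still at 599 CPM against at most 59.5 CPM elsewhere, whereas Darc fell to 5.35 CPM, within the range of the other libraries. Microglia of library 8 held 140.2 CPM of Lcn2 and those of the other P60 libraries none, its excitatory and inhibitory neurons held 2.53 and 6.71 CPM against at most 0.123 and 0.609 CPM elsewhere at P60, and its astrocytes and oligodendrocytes held 0 CPM. These genes were chosen after their values were seen.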

How the data were processed

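Tissue was dissociated and single-cell libraries were made on the 10x platform in 12 P60 and 3 P21 samples. The deposited matrices hold raw UMI counts that the authors obtained with Cell Ranger on mm9 with Ensembl release 67 genes (NCBIM37). The deposited cell annotation gives the library, class and cluster of 35360 cells and their mitochondrial fraction, after the authors had removed cells with few genes, a high mitochondrial fraction or features of doublets, and no further doublet call was made here. The authors named P21 cells by correlation with P60 clusters. The members and the gene lists were chosen with earlier results of these data known.

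UMIs were summed over the Endo cells of each library. Without 13 mitochondrial genes and 143 genes of ribosomal proteins 25989 genes remained, 25724 of all 26145 being matched to the annotation. Sums were tested with edgeR 4.0.16 in R 4.3.3 (TMM scaling, filterByExpr, robust quasi-likelihood fit, Benjamini-Hochberg adjustment). Cocaine contrasts shared one fit over the 12 P60 libraries. A called gene had an adjusted p below 0.05 and a change over 1.5-fold. Shares were compared by two-sided exact permutation of libraries, intervals for counting error were computed with scipy 1.17.1, and transcript ends were aligned with minimap2 2.31-r1302. The fitting step was tested on simulated data. Of genes given a log2 fold change of 1, 59% were recovered for P60 saline versus P21 and 52.5% for cocaine at 15 days. At a log2 fold change of 2 these shares were 89.5% and 88.5%. A gene that was not called can therefore still have changed. Intervals and the floor of 3 UMIs cover counting error only, at 95% confidence.

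Named genes were Flt1, Cldn5, for each comparison the 8 (cocaine, 5) largest rises and falls among called genes without overlap and with a mean of at least 20 CPM, and up to 4 called members per list, or the most abundant ones until 2 were named. Of the list members, 2 were not matched to a single entry of the files. Alternatives comprised DESeq2 1.42.0, its size factors, no low-count filter, equal cell numbers, other cell and library subsets and leaving out each library. The cell subsets by mural and red cell RNA, the omission of sub-cluster 12 and of red blood cell markers were chosen after seeing the data. Results for a few genes are not reported here. The joined count matrix, which repeats the separate ones, was not used.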

Additional observations from a re-analysis of the deposited data

Results flagged for a closer look

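In 4 of the 70 values examined over the 6 saline P60 libraries, 1 library lay far from the others, where chance flags about 1 in 20 groups. Hspa1b, a heat shock gene, was at 117 CPM in saline library 2 and at 19.8 to 54.9 CPM in the other saline libraries. Slc16a1, the lactate carrier, was at 298 CPM in saline library 5 and at 145 to 200.0 CPM in the others, all below the P21 libraries. Ptgs2, a prostaglandin synthase, was at 21.8 CPM in saline library 12 and at 8.40 to 12.0 CPM in the others. Prnd was at 2.40 CPM in saline library 7 and at 0 to 0.639 CPM in the others, a level of few UMIs.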

How the results depend on the processing

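No paired analysis was possible because the library numbers run through all libraries of an age and do not repeat between groups. The P60 saline versus P21 count of 1319 genes became 624 in cells with little mural and red cell RNA and was between 928 and 1403 with each library left out. DESeq2 called 1190 genes, 1146 of them shared. Of 1249 repeated values of its 60 called named genes, 1187 kept their call, 61 lost it and 1, Icam1 at 0.063 in those same cells, turned. Without a filter on low counts the calls were 7 at maintenance, 29 at 48 h, 103 at 15 days, 17 over all times and 37 for the interaction. In cells with little mural and red cell RNA they were 0 at 48 h and 0 at 15 days, and with the 4 libraries of a time point alone 8 and 0. At 15 days they were 24 with DESeq2 size factors, 25 with mitochondrial and ribosomal protein genes kept, 4 in sub-clusters 1, 7, 8, 9, 10 and 12, 28 without cells over 1% in other-type markers, 26 in cells under 2% red cell RNA and 31 without sub-cluster 12. With equal cell numbers the interaction gave 1. Leaving out each library gave 0 to 2 at maintenance, 0 to 22 at 48 h, 0 to 133 at 15 days, 0 to 27 over all times and 0 to 37 for the interaction, the last 3 maxima without saline library 12. The cause of these changes was not tested. The cocaine difference in the Endo share was -5.08 to -1.13 percentage points and that in cells with mural UMIs and no Cldn5 -1.43 to -0.655. Sub-clusters could not be compared between ages because P21 cells carry none. Few UMIs limit genes near 0.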

Other observations

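Clock genes varied between libraries of Endo cells and were looked at after their values were seen. Dbp, a clock-controlled transcription factor, was at 14.5 and 15.8 CPM in cocaine libraries 6 and 8 at 48 h and at 65.8 and 121 CPM in saline libraries 5 and 7. Nr1d1, a repressor of the clock, was at 21.1 and 33.3 CPM against 92.0 and 119 CPM in the same libraries. The groups overlapped at 48 h for Per1 (65.6 and 86.3 CPM in cocaine, 73.5 and 79.2 CPM in saline libraries) and Per2 (13.3 and 29.3 against 18.5 and 25.2 CPM). At maintenance, cocaine libraries 1 and 4 held 77.2 and 29.4 CPM of Dbp and saline libraries 2 and 3 held 40.0 and 101 CPM, so that the groups overlapped, as they did at 15 days (94.3 and 72.7 against 108 and 63.8 CPM). Arntl was at 16.96 CPM in P21 library 1 and at no more than 5.04 CPM in any other library, whereas Per2 was at 1.82 CPM in P21 library 1 and at 12.6 and 8.92 CPM in P21 libraries 2 and 3. The hour of tissue collection was not given in the sources used here, and its part in these values was not tested.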
